A study of Ovis aries with 14 samples.

Results

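Transcripts for the glutamate transporter EAAT2 and the metabotropic glutamate receptors MGLUR3 and MGLUR4 were measured in the hypothalamus of fetal sheep after a short infusion of triclosan, an antibacterial additive of soaps and other personal care products. They are 3 of 965 genes that the array names, read by 4 of its 15008 probes that are not controls. EAAT2 had 2 probes, and MGLUR3 and MGLUR4 had 1 probe each. All 4 were among the 13740 probes that passed the filter on dim signals. The 3 genes were picked because earlier results on these arrays showed them to differ after triclosan. The direct-infusion values of MGLUR3 and MGLUR4 and the maternal-infusion values of EAAT2 are therefore given below as a description, with no test. Tests are given for the values that did not serve the choice, namely EAAT2 after direct infusion, MGLUR3 and MGLUR4 after maternal infusion, and the other glutamate genes of the array.

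The fetuses were chronically catheterized, in late gestation, and about 130 days old. Direct exposure was an intravenous infusion of vehicle (n = 4) or of triclosan at 250 µg per day (n = 4) into the fetus for 2 days. Indirect exposure was an infusion of vehicle or of triclosan at 100 µg/kg per day (n = 3) into the maternal circulation for 2 days. Not given in the sources used here are the breed, the fetal sex, the vehicle and whether each array stands for its own pregnancy. The p-values therefore measure the spread between these samples. Of the 3 maternal vehicle arrays, replicate 3 equalled 0.6 times replicate 1 plus 0.4 times replicate 2 at all 15744 spots within a relative tolerance of 1e-06. It was left out, so maternal vehicle has n = 2 and all results rest on 13 arrays. The 2 routes differ in dose and in the units of dose, and the values of the 2 arms are set side by side without a claim that one exceeds the other unless a test of the difference is given.

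Glutamate is the main excitatory transmitter of the brain, and in the hypothalamus it acts on the neurons that control pituitary hormone release. It is cleared from the extracellular space by sodium-dependent transporters, chiefly EAAT2 and EAAT1 of astrocytes, and by EAAT3 of neurons. Metabotropic receptors are G protein-coupled receptors for glutamate. Group I receptors such as MGLUR5 signal through phospholipase C, MGLUR2 and MGLUR3 form group II, and MGLUR4, MGLUR6, MGLUR7 and MGLUR8 form group III. Groups II and III couple to inhibitory G proteins that lower cyclic AMP. In rodents MGLUR3 lies on astrocytes as well as on neurons, and MGLUR4 lies mainly on presynaptic terminals.

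The probe sequences show which values are separate measurements of a gene. They are given 5′ to 3′ as the array files list them, with capitals for the longest run of bases that a probe shares with another probe of the family. The EAAT2 probes share 58 bases and are shifted against each other by 2, so they are near-copies of one measurement. A further probe, named GLT-1 after the rodent name of the same transporter, shares a run of only 7 bases with either of them and reads another stretch of the transcript. The longest run of MGLUR3 in another family probe is 12 bases, in MGLUR6 probe a, and that of MGLUR4 is 9 bases, in MGLUR7 probe a. The capitals of GLT-1 mark its 7-base run with EAAT1 probe b.
EAAT2 probe a: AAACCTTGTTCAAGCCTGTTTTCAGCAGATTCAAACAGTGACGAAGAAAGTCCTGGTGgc
EAAT2 probe b: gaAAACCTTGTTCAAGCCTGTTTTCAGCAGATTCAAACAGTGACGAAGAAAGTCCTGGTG
GLT-1: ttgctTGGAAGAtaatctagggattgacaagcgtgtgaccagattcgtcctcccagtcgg
MGLUR3: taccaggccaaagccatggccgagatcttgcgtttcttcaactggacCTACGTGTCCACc
MGLUR4: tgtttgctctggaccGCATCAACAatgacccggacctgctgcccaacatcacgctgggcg
Each of these 5 sequences was set against all 15008 probes. The best ungapped match to a probe not assigned to the same gene had 31 to 33 identical bases out of 56 to 60 aligned.

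All values below are log2 of the processed signal minus the 75th percentile of the same array, called the scaled log2 level, so a level of 0 is as bright as the 75th percentile. The median processed signal of an array ranged from 236.1 to 307.4 after fetal triclosan and from 315.4 to 380.0 after fetal vehicle, and in the maternal arm from 284.3 to 375.8 after triclosan and from 350.9 to 353.9 after vehicle. On each array 83.3% to 90.1% of the probes were well above background. A replicate number from 1 to 3 is also the slide number of the array. Slide 3 held fetal vehicle replicate 4 as well, whereas fetal triclosan replicate 4 had a slide and a scan day of its own. Of 10 hypothalamic peptide genes tested, 9 were well above background on all 13 arrays. The lists of neuron and oligodendrocyte markers had no gene that the array names, so these cells could not be checked. The RNA came from whole tissue, in which fewer cells of a type and less RNA per cell cannot be told apart.

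EAAT2, the main astrocyte glutamate transporter of the forebrain, was lowest in the fetuses of ewes given triclosan. With probe a the 2 maternal vehicle arrays read -1.57 and -1.35, and the 3 maternal triclosan arrays read -3.08, -3.08 and -2.55. The 3 triclosan arrays were all below both vehicle arrays, as for 19.1% of all probes in that arm. The difference of -1.44 (SE 0.23) is a 2.72-fold lower signal, the 55th lowest of the 13740 probes in that arm. It was -1.51 on slide 1 and -1.72 on slide 2, the 2 slides that hold both groups. Probe b read -1.76 and -1.55 with maternal vehicle and -3.11, -3.06 and -2.64 with maternal triclosan, a difference of -1.28 (SE 0.22). As processed signals, probe a lay between 575 and 679 with maternal vehicle and between 176 and 306 with maternal triclosan.

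The maternal vehicle arrays also stood above the fetal vehicle arrays for this gene. Probe a read -1.96, -1.97, -2.21 and -2.19 with fetal vehicle, so the mean of maternal vehicle was higher by 0.62 and the groups did not overlap. Over all probes, EAAT2 included, the contrast of the vehicle groups gave 0 calls by limma, with 3.27% at an unadjusted p under 0.05. Both EAAT2 probes were within that share, and their maternal vehicle values had served the choice of the gene. Set against fetal vehicle in place of maternal vehicle, the maternal triclosan mean was lower by 0.82, again with no overlap. The share of all probes without overlap was not computed for either of these pairs of groups. The order of the group means was maternal vehicle (-1.46 ± 0.15, SD, n = 2), fetal vehicle (-2.08 ± 0.13, n = 4), fetal triclosan (-2.38 ± 0.33, n = 4) and maternal triclosan (-2.90 ± 0.31, n = 3). In this order fetal vehicle and fetal triclosan overlapped, and so did fetal triclosan and maternal triclosan.

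Direct infusion gave no EAAT2 difference that passed a test. Probe a read -1.89, -2.64, -2.53 and -2.47 with fetal triclosan. Replicate 1 was above every fetal vehicle array and the other 3 were below every one. The mean difference was -0.30 (SE 0.18, 95% confidence interval -0.69 to 0.10), with an adjusted p of 0.279 by limma over all 13740 probes. A two-sided exact permutation test of the 4 against 4 arrays gave p = 0.171, where the smallest p the design allows is 0.0286. Probe b read -2.13, -2.18, -2.25 and -2.18 with fetal vehicle and -1.91, -2.66, -2.58 and -2.53 with fetal triclosan, with replicate 1 again above and the others below. Its difference was -0.24 (SE 0.17, interval -0.61 to 0.14; limma adjusted p = 0.367, exact permutation p = 0.143). Without fetal triclosan replicate 1 the difference of probe a was -0.46, with a limma adjusted p of 0.0747.

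The GLT-1 probe, which shares nearly no sequence with the EAAT2 probes, was lower in the maternal arm as well. It read -3.36 and -3.70 with maternal vehicle and -4.32, -4.46 and -3.98 with maternal triclosan. The groups did not overlap, and 19.1% of all probes were lower without overlap in that arm. By limma 0 of all probes passed there. The GLT-1 difference was -0.72 (SE 0.27), a 1.65-fold lower signal beside the 2.72-fold of EAAT2 probe a. Whether the probes differ was not tested. Within slides the GLT-1 difference was -0.95 and -0.76. After direct infusion the GLT-1 probe read -3.32, -4.19, -3.73 and -4.26 against -3.70, -4.10, -3.75 and -3.66 with fetal vehicle. These groups overlapped, the difference was -0.07 (SE 0.21, interval -0.53 to 0.39; limma adjusted p = 0.842), and its sign turned under 5 other ways of processing.

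**Figure D1:**
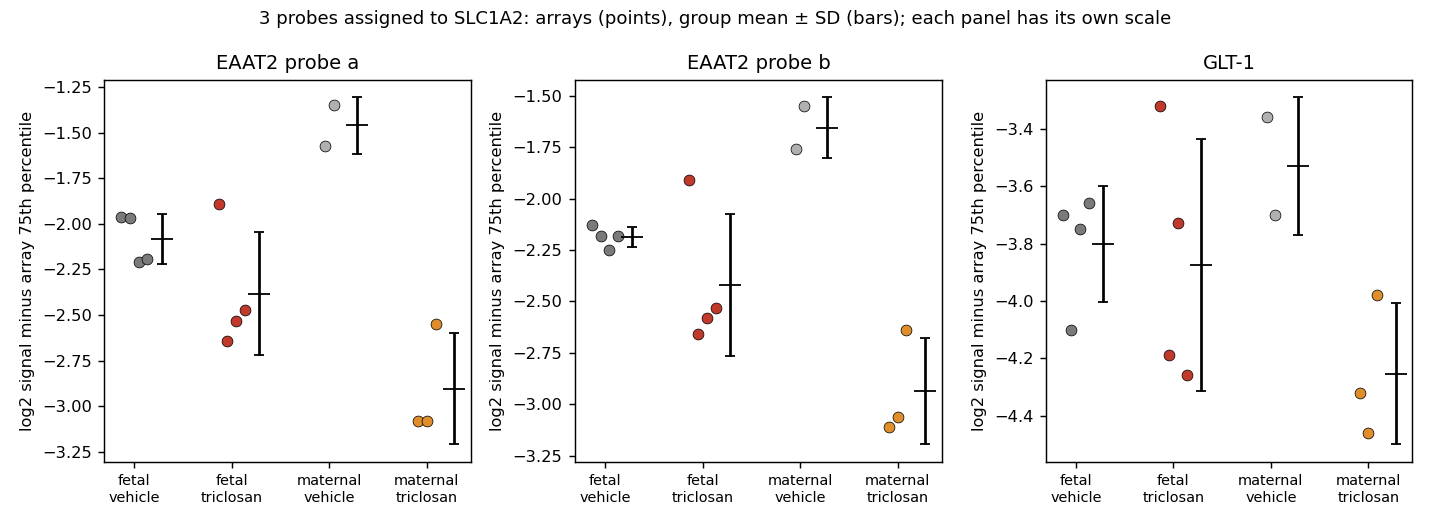
Scaled log2 level (log2 signal minus the 75th percentile of the array) of the 3 probes assigned to SLC1A2, the gene of EAAT2, in the 4 groups; points are arrays, bars are group mean ± SD, and each panel has its own vertical scale. In all 3 panels the 3 maternal triclosan arrays lie below the 2 maternal vehicle arrays, while the fetal vehicle and fetal triclosan arrays overlap.

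MGLUR3, a group II receptor of astrocytes and neurons, was much lower after direct infusion. It read -3.06, -3.11, -3.00 and -3.18 with fetal vehicle and -5.79, -5.33, -4.71 and -4.09 with fetal triclosan. The vehicle arrays lay close together, whereas the triclosan arrays were widely spread and all stood below them, as for 12.6% of all probes. The difference of -1.89 (SE 0.32) is a 3.71-fold lower signal and the 25th lowest of the 13740 probes. Within slides 1, 2 and 3 it was -2.73, -2.22 and -1.62, and without fetal triclosan replicate 4, the least lowered of the 4, it was -2.19. The processed signal was 188 to 234 with fetal vehicle and 29 to 81.6 with fetal triclosan, and the probe was well above background on all 13 arrays. The size changed with the processing. It was -1.01 with normexp, a model-based correction that compresses dim values, and -1.24 in the values the authors deposited.

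After maternal infusion the difference of MGLUR3 did not pass the test. It read -2.91 and -2.79 with maternal vehicle and -3.59, -4.00 and -3.02 with maternal triclosan. The triclosan arrays were all below the vehicle arrays, the nearest by 0.11, which again 19.1% of all probes did. The difference was -0.68 (SE 0.41, interval -1.58 to 0.21; limma adjusted p = 0.594), and -0.68 and -1.21 within slides 1 and 2. In the order of the group means, maternal vehicle (-2.85 ± 0.09, SD, n = 2) came first, then fetal vehicle (-3.09 ± 0.08, n = 4), maternal triclosan (-3.53 ± 0.49, n = 3) and fetal triclosan (-4.98 ± 0.74, n = 4). Maternal triclosan overlapped with fetal vehicle, since its replicate 3 read -3.02, and the other neighbours in this order did not overlap.

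MGLUR4, a group III receptor of presynaptic terminals, was higher after direct infusion, the opposite direction to MGLUR3. It read -0.21, -0.26, -0.38 and -0.14 with fetal vehicle and 0.30, 0.54, 0.35 and 0.66 with fetal triclosan. All 4 triclosan arrays were above every vehicle array, by at least 0.43, and 9.3% of all probes had no overlap in that direction. The difference of 0.71 (SE 0.13) is a 1.64-fold higher signal, the 402nd highest of the 13740 probes. Within slides 1, 2 and 3 it was 0.51, 0.81 and 0.61, and without fetal triclosan replicate 4 it was 0.65. The processed signal, which is not scaled between arrays, was 1352 to 1717 with fetal vehicle and 1966 to 2405 with fetal triclosan.

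After maternal infusion MGLUR4 did not pass the test. It read -0.51 and -0.37 with maternal vehicle and -0.27, 0.11 and -0.28 with maternal triclosan. The triclosan arrays were all above the vehicle arrays, the nearest by 0.09, as for 19.9% of all probes in that arm. The difference was 0.29 (SE 0.16, interval -0.07 to 0.65; limma adjusted p = 0.575), and 0.24 and 0.48 within slides 1 and 2. The order of the group means was fetal triclosan (0.46 ± 0.17, SD, n = 4), maternal triclosan (-0.15 ± 0.22, n = 3), fetal vehicle (-0.25 ± 0.10, n = 4) and maternal vehicle (-0.44 ± 0.10, n = 2). Only fetal triclosan stood apart from its neighbour in this order, while the 3 lower groups overlapped from one to the next.

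**Figure D2:**
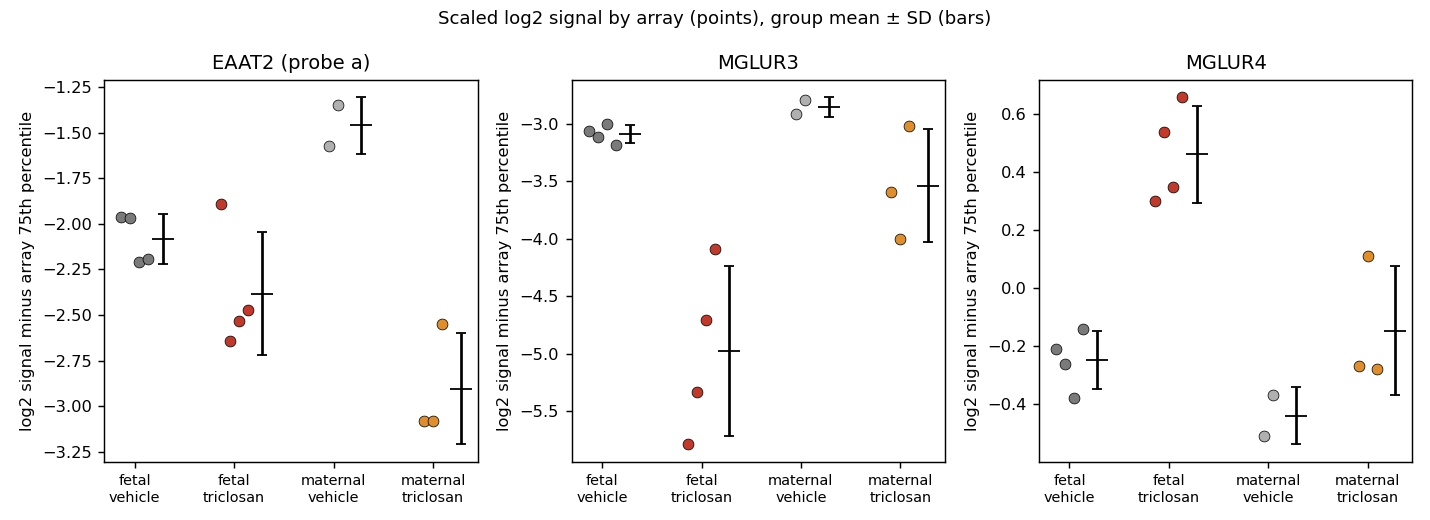
Scaled log2 level of EAAT2 probe a, MGLUR3 and MGLUR4 on each of 13 arrays in the 4 groups; points are arrays, bars are group mean ± SD, and each panel has its own vertical scale. MGLUR3 spans -5.79 to -4.09 with fetal triclosan against -3.18 to -3.00 with fetal vehicle, MGLUR4 is above its fetal vehicle arrays on all 4 fetal triclosan arrays, and EAAT2 is lowest with maternal triclosan.

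The values of 13 further glutamate genes are given here, and after direct infusion those that passed the test were all lower. Of the 13, 3 fell and 0 rose at a limma adjusted p under 0.05, where 11.3% of all 13740 probes were lower, 6.8% were higher and 18.1% passed in either direction. With the arrays scaled on their medians, 946 of all probes were lower and 2174 higher, in place of 1555 and 935, and of the 13 genes again 3 were lower and 0 higher. In the main setting their median difference was -0.41, against -0.09 over all probes, and 12 of 13 lay below 0. With median scaling their median was -0.19, against 0.13 over all probes, and GLUD1, GRIA1, GRIA2 and GRIA3 turned to above 0. The count that passed in either direction was 5 without fetal triclosan replicate 3 and 1 with normexp background correction. After maternal infusion 0 of the 13 passed by limma, as did 0 of all probes, 2 were lower at an unadjusted p under 0.05, and the share of all probes at that level was 4.71% lower and 9.64% in either direction. Their median there was -0.20, against 0.01 over all probes. Where a gene had several probes, the one with the highest mean stands for it.

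Both other transporters fell after direct infusion, where 11.3% of all probes passed as lower. EAAT1 (gene SLC1A3), the transporter of radial glia and astrocytes, read -0.07, -0.01, -0.38 and 0.03 with fetal vehicle and -1.03, -1.02, -0.77 and -0.68 with fetal triclosan. The groups did not overlap, and 12.6% of all probes were lower without overlap after direct infusion. EAAT1 fell by 0.77 on the log2 scale (SE 0.17, limma adjusted p = 0.0132), with a second probe of separate sequence at -0.78 (adjusted p = 0.0156). EAAT3 (SLC1A1), the neuronal transporter that also takes up cysteine, was 37.1 to 51.3 in processed signal with fetal triclosan and 75.3 to 109 with fetal vehicle. EAAT3 fell by 0.84 on the log2 scale (SE 0.16, limma adjusted p = 0.00664), and normexp gave -0.27 (adjusted p = 0.234), which did not pass. After maternal infusion EAAT1 differed by -0.54 (SE 0.22, limma adjusted p = 0.497) and EAAT3 by -0.44 (SE 0.20, adjusted p = 0.529). The difference between the arms did not pass for either, at -0.23 for EAAT1 (limma adjusted p = 0.706) and -0.40 for EAAT3 (adjusted p = 0.46). Of all probes 0 passed in that contrast and 14.7% had an unadjusted p under 0.05. Side by side with these, EAAT2 had -0.30 after direct and -1.44 after maternal infusion, and whether it differs from EAAT1 or EAAT3 was not tested.

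Of the 5 other metabotropic receptors described here, 1 fell after direct infusion and none rose, against 11.3% of all probes lower. MGLUR8 (GRM8), a group III receptor of presynaptic terminals like MGLUR4, read -3.81, -3.70, -3.80 and -3.88 with fetal vehicle and -4.32, -4.60, -4.10 and -4.57 with fetal triclosan. It fell by 0.60 on the log2 scale (SE 0.13, limma adjusted p = 0.0106), and this call was lost with normexp (-0.27, adjusted p = 0.179), quantile normalisation (-0.33, adjusted p = 0.0992) and the authors' values (-0.34, adjusted p = 0.0778).

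The remaining 4 metabotropic receptors did not pass after direct infusion. MGLUR7 (GRM7), which acts at the presynaptic release site, differed by -0.64 (SE 0.25, limma adjusted p = 0.0976). MGLUR6 (GRM6), known best from bipolar cells of the retina, differed by -0.41 (SE 0.15, adjusted p = 0.0807). It passed without fetal triclosan replicate 3 (-0.55, adjusted p = 0.0141). Over the other ways of processing it spanned -0.41 to -0.05, with a limma adjusted p of up to 0.878. MGLUR2 (GRM2), the other group II receptor, differed by -0.81 (SE 0.47, adjusted p = 0.264). It was well above background on only 2 of the 4 fetal triclosan arrays. Fetal vehicle replicate 3 read -4.28 for it, and the other fetal vehicle arrays -6.52 to -6.24. Without each array in turn the difference spanned -1.02 to -0.28, and a second MGLUR2 probe gave -0.54 (SE 0.31, adjusted p = 0.251). GRM5, a group I receptor, which the array carries under a locus number, was the one gene of the 13 above 0, at 0.17 (SE 0.23, adjusted p = 0.653). Beside them MGLUR4 had 0.71, the direction for which it was chosen. After maternal infusion the 5 ranged from -0.33 (MGLUR8) to 0.47 (GRM5), and the difference between the arms did not pass for MGLUR8 (-0.27, limma adjusted p = 0.532).

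Among the ionotropic receptors, the AMPA receptor subunits stayed close to 0. After direct infusion GRIA1 differed by -0.10 (SE 0.24), GRIA2 by -0.12 (SE 0.20), GRIA3 by -0.20 (SE 0.18) and GRIA4 by -0.27 (SE 0.15), with limma adjusted p from 0.221 to 0.802. Each of these 4 had overlapping groups. GRIN1, the obligatory subunit of NMDA receptors, differed by -0.67 (SE 0.25, limma adjusted p = 0.0826) with the probe that stands for it, whereas a probe of separate sequence that the array calls NR1 passed at -0.95 (SE 0.24, adjusted p = 0.0212). The GRIN1 probes thus ran one way but fell on both sides of the threshold. Without fetal triclosan replicate 3 the first of them also passed (-0.88, adjusted p = 0.02). It did not pass without fetal triclosan replicate 4 (-0.51, adjusted p = 0.167) or with the slide as a block (-0.54, adjusted p = 0.186).

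GLUD1, the mitochondrial enzyme that interconverts glutamate and 2-oxoglutarate, gave probes that disagreed in size. The brightest probe differed by -0.10 (SE 0.18, limma adjusted p = 0.726) after direct infusion. A probe listed under LOC443239, which the gene table assigns to GLUD1, differed by -0.62 (SE 0.19, adjusted p = 0.042). After maternal infusion the same probes differed by -0.61 (SE 0.23, adjusted p = 0.463) and -0.73 (SE 0.24, adjusted p = 0.443). Like EAAT2, the brightest GLUD1 probe had its highest mean with maternal vehicle (3.45), above fetal vehicle (2.85) by 0.60, and the difference between the vehicle groups did not pass (adjusted p = 0.999).

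**Figure D3:**
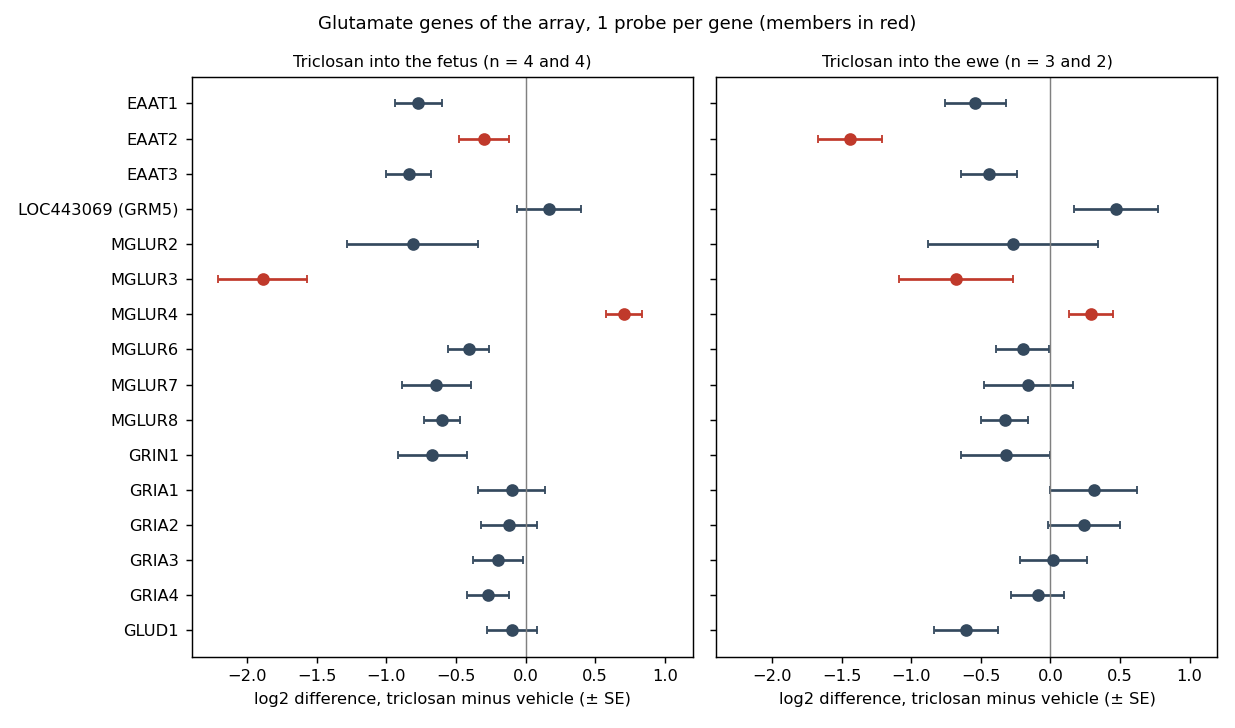
Log2 difference, triclosan minus vehicle, with its standard error, for the 16 glutamate genes reported (1 probe each), after infusion into the fetus (left) and into the ewe (right); EAAT2, MGLUR3 and MGLUR4 are red. MGLUR3 (-1.89) and MGLUR4 (0.71) mark the ends of the left panel, and EAAT2 (-1.44) marks the low end of the right panel. These are the differences for which the genes in red were chosen.

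Differences in the direct arm moved with the brightness of a probe over the whole array. By decile of brightness, the median difference ran from -0.29 for the dimmest probes to 0.24 for the brightest. MGLUR3 was brighter than 30.6% of the tested probes, and its own decile had a median of -0.28 with quartiles of -0.57 and 0.01. Only 0.291% of that decile was lower than MGLUR3. MGLUR4 was brighter than 72.1% of the tested probes, its decile had a median of 0.05, and 98.4% of that decile was lower than MGLUR4. EAAT2 probe a, in a decile with a direct median of -0.21, had 42.2% of it below its own direct difference. In the maternal arm the same decile had a median of -0.05 and 0% of it lay below EAAT2 probe a. Of the genes that fell, EAAT1 had 7.13%, EAAT3 11.1% and MGLUR8 22.8% of their deciles below them. The direct values of MGLUR3 and MGLUR4 and the maternal values of EAAT2 served to choose these genes. Their places in the deciles follow in part from that choice and are given as a description. The part of brightness in these results was not tested.

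**Figure D4:**
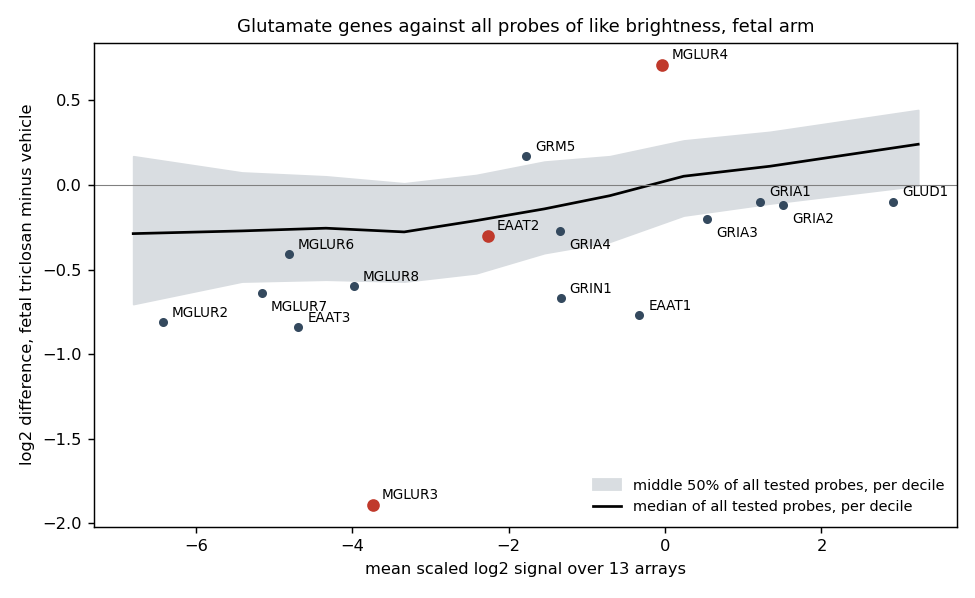
Log2 difference, fetal triclosan minus fetal vehicle, against the mean scaled log2 level over 13 arrays, for the 16 glutamate genes (EAAT2, MGLUR3 and MGLUR4 in red); the line is the median and the band spans the quartiles of all tested probes in each decile of brightness. MGLUR3 lies far below the band and MGLUR4 above it, while EAAT2 lies inside it. MGLUR3 and MGLUR4 were chosen for their differences in this arm.

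EAAT2 and EAAT1 are chiefly transporters of astrocytes, and MGLUR3 lies on astrocytes as well as on neurons. The values of other astrocyte genes are given beside them. The part of astrocytes in these results was not tested. After direct infusion, of 7 astrocyte genes tested beside EAAT1 1 was higher and 1 was lower by limma at an adjusted p under 0.05, where 6.8% of all probes were higher and 11.3% lower. Their median difference was 0.26 against -0.09 over all probes. MT3, a zinc- and copper-binding metallothionein, rose by 0.71 (SE 0.19, adjusted p = 0.0253). FGFR3, a growth factor receptor of astrocyte precursors, fell by 1.61 on the log2 scale (SE 0.35, adjusted p = 0.0106), with 3 of the 4 fetal triclosan arrays well above background. The water channel AQP4 differed by 0.13 (SE 0.13), the filament gene GFAP by -0.63 (SE 0.35), the gap junction gene GJA1 by 0.46 (SE 0.25) and VIM by 0.26 (SE 0.21). AQP1 was well above background on 3 of the 13 arrays. The summed level of the 7 genes, in multiples of the 75th percentile, was 149 to 200 after fetal triclosan and 124 to 147 after fetal vehicle. In the maternal arm it was 174 to 190 after triclosan and 147 to 148 after vehicle. These sums are carried by the brightest genes, AQP4, VIM and MT3. After fetal triclosan and vehicle the means were 75.7 and 68.9 for AQP4, 56.8 and 45.4 for VIM, and 34.3 and 20.3 for MT3. After maternal triclosan and vehicle they were 72 and 63.4 for AQP4, 87.8 and 61.3 for VIM, and 20.6 and 20.6 for MT3. The mean log2 level of the 7 overlapped in both arms, at -0.26 to 0.84 after fetal triclosan and 0.16 to 0.38 after fetal vehicle, and at 0.27 to 0.62 after maternal triclosan and 0.41 to 0.70 after maternal vehicle. After maternal infusion 0 of the 7 passed by limma, as did 0 of all probes, and 0 had an unadjusted p under 0.05.

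Markers of other cell types and regions are given beside these genes, and some of them passed after direct infusion. The 3 erythroid genes (HBB, AHSP and CA1) had a summed level of 11.8 to 23.4 after fetal triclosan and 4.28 to 12.5 after fetal vehicle. In the maternal arm it was 10.5 to 26.8 after triclosan and 3.28 to 8.9 after vehicle. Nearly all of this sum was HBB, at a mean of 16.9 after fetal triclosan and 7.07 after fetal vehicle. Of these 3 only the globin chaperone AHSP passed after direct infusion, higher by 0.94 (SE 0.28, limma adjusted p = 0.0383), where 6.8% of all probes were higher. HBB differed by 1.32 (SE 0.44, adjusted p = 0.0604) and CA1 by 1.14 (SE 0.47, adjusted p = 0.116). After maternal infusion HBB differed by 1.80, AHSP by 1.45 and CA1 by 0.34. None of them passed by limma there, and neither did any other probe. Of 4 endothelial genes, 2 were lower after direct infusion by limma, as were 11.3% of all probes. KDR, a vascular growth factor receptor, differed by -1.57 (SE 0.17, adjusted p = 0.00203). FLT1, another such receptor, passed as well (adjusted p = 0.00968), but its probe was well above background on 0 of the 4 fetal triclosan arrays and no size is given. TIE1 differed by 0.06 (SE 0.16) and PECAM1 by -0.26 (SE 0.18), and neither passed. The summed endothelial level was 0.496 to 0.715 after fetal triclosan and 0.65 to 0.921 after fetal vehicle. In the maternal arm it was 0.742 to 0.813 after triclosan and 0.84 to 0.87 after vehicle. Most of this sum was PECAM1, at a mean of 0.477 after fetal triclosan and 0.574 after fetal vehicle. The summed level of the 10 hypothalamic peptide genes was 25 to 34.8 with maternal triclosan against 11.2 to 16 with maternal vehicle. That is the arm in which EAAT2 was lowest. In the fetal arm the sum was 9.5 to 56.1 with triclosan against 9.19 to 19.8 with vehicle. Most of the maternal sum was its brightest gene, at a mean of 19.6 with maternal triclosan and 8.91 with maternal vehicle. In that list 0 of 10 passed by limma in either arm, and 5 were higher at an unadjusted p under 0.05 after direct infusion and 4 after maternal infusion. Of all probes 13.2% and 4.93% were higher at that level. Of 6 pituitary genes 0 passed by limma in either arm, and after maternal infusion 2 were higher and 1 was lower at an unadjusted p under 0.05, against 4.93% and 4.71% of all probes. Of 3 leukocyte and microglia genes 1 passed after direct infusion, against 18.1% of all probes. The integrin gene ITGAM fell by 0.95 on the log2 scale (SE 0.29, limma adjusted p = 0.0418), while FCER1G differed by 0.46 (SE 0.17, adjusted p = 0.077) and CD14 by -0.03 (SE 0.19, adjusted p = 0.924). The part of these cell types in the results was not tested.

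Of the genes through which metabotropic receptors signal, the array named 3. None passed by limma in either arm, and 0 were past an unadjusted p of 0.05. After direct infusion PRKACA, the catalytic subunit of the cyclic AMP-dependent kinase, differed by -0.44 (SE 0.22, adjusted p = 0.19), PRKAR1A, a regulatory subunit of the same kinase, by -0.09 (SE 0.15, adjusted p = 0.699) and RGS2, which ends signalling by G proteins, by 0.07 (SE 0.10, adjusted p = 0.678).

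Within groups, the arrays that deviated for one of the 3 genes deviated for a few other genes as well. Likeness was measured as the correlation r of deviations from the group means over 13 arrays and 886 named genes, and genes among the 3 highest are given as a description. All points share their arrays and their scaling. For MGLUR3 2 of the 3 were HSPA5, a chaperone of the endoplasmic reticulum (r = 0.94, Spearman rho = 0.76), and PDIA4, a protein disulfide isomerase (r = 0.91, rho = 0.90). For MGLUR4 they were a probe named CREB (r = 0.84, rho = 0.87), TXN, a thioredoxin (r = 0.83, rho = 0.85), and HACD1 (r = 0.82, rho = 0.85). For EAAT2 probe a they were BMP4 (r = 0.90, rho = 0.67), CA1 (r = 0.81, rho = 0.78) and SERPINA14 (r = 0.79, rho = 0.60). BMP4 is a secreted growth factor and SERPINA14 a uterine serpin. CA1, a carbonic anhydrase of red cells, was well above background on 1 of 2 maternal vehicle and 1 of 3 maternal triclosan arrays. Between triclosan and vehicle, HSPA5, PDIA4, TXN, HACD1 and SERPINA14 had differences of the same sign as the gene they resembled in both arms, and BMP4, CA1 and CREB had the opposite sign in both. BMP4 was higher by 1.58 with maternal triclosan, where EAAT2 was lower by 1.44, and the deviations of MGLUR3 and MGLUR4 from their group means had r = 0.09 (rho was not computed on deviations).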

How the data were processed

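Single-colour (Cy3) Agilent ovine arrays of fetal hypothalamus RNA were used. The intensity values of each spot, per the file headers, were made by the authors with Agilent Feature Extraction 10.1.1.1 and include a processed signal that was background-subtracted but not scaled between arrays. The authors' deposited value table, which lies closest to log2 values, lists 13899 probes, with a scaling not given in the sources used here.

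Levels are log2 processed signal minus the array's own 75th percentile. Control and outlier spots were left out, spots of a probe were averaged, and probes well above background on at least 3 arrays were kept, which left 13740 probes with 250 missing values. A model in limma 3.58.1 (R 4.3.3) had 1 mean per group over 13 arrays (9 residual and 2.36 prior degrees of freedom). P-values are two-sided and Benjamini-Hochberg adjusted over all probes, at a threshold of 0.05, and intervals are 95%. The number of arrays limits the precision. Gene names came from the files and the supplied RefSeq gene table, and 1562 of 15008 probes carry a symbol. No coordinates are given.

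The genes and lists were chosen with earlier results of these data known. Of 11 lists, the glutamate and GABA list had 16 genes on the array. Named are the 3 genes and other probes of them, all measured genes of that list, genes that passed and up to 4 others in the astrocyte and signalling lists, and the 3 genes most like each, except that 2 genes this rule would name are not reported here. Marker genes outside this rule (KDR, FLT1, TIE1, PECAM1, AHSP, HBB, CA1, ITGAM, FCER1G and CD14) were named after their values were seen. Alternatives were normexp (offset 50), quantile and median scaling, the authors' values, other filters, outlier spots kept, the arm alone, all 14 arrays, blocks for replicate number and slide, and each array left out.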

Additional observations from a re-analysis of the deposited data

Results flagged for a closer look

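Among 60 groups of 4 arrays checked for the glutamate probes, 2 held an array that stood apart from the others by Dixon's criterion, and chance flags about 1 group in 20. The second EAAT1 probe read -0.75 on fetal triclosan replicate 4, with the other 3 arrays between -1.38 and -1.29. Fetal triclosan replicate 4 lay alone on its slide. MGLUR2 probe a read -4.28 on fetal vehicle replicate 3, with the other 3 between -6.52 and -6.24.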

How the results depend on the processing

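EAAT2 after direct infusion stayed below 0 and short of the threshold in all 12 alternatives (-0.30 to -0.08) and without each array in turn (-0.46 to -0.21, limma adjusted p 0.0747 to 0.499). After maternal infusion MGLUR3 (-0.87 to -0.56, and -0.94 to -0.45 without each array) and MGLUR4 (0.29 to 0.34, and 0.16 to 0.36) also kept their side. The 2490 probes that passed after direct infusion became 1275 with the arm alone and 1214 to 2951 without each array (1640 without replicate 1 and 1214 without replicate 3 of fetal vehicle). After maternal infusion 0 became 12 with all 14 arrays and 0 to 2 without each array. Of the 13 other glutamate genes, 3 passed in the main setting, 1 with normexp and 3 to 5 without each array (5 without fetal triclosan replicate 3). Under median scaling the median over all probes was 0.13 in place of -0.09. It took the share of higher calls from 37.6% to 69.7% (2174 higher and 946 lower of 3120) and MGLUR4 after direct infusion to 0.93. The difference between arms of MGLUR3 was -0.38 with normexp (-1.21 in the main setting, and -1.50 to -0.94 without each array), and that of MGLUR4 was 0.60 with median scaling (0.42 in the main setting, and 0.35 to 0.55 without each array).

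The sign turned for values near 0 that had passed no test. GLT-1 after direct infusion was 0.02 with normexp, 0.21 with quantile normalisation, 0.15 with median scaling, 0.13 in the authors' values and 0.09 with the slide as a block, and -0.26 to 0.06 without each array. With median scaling GLUD1 (0.12), GRIA1 (0.12), GRIA2 (0.10) and GRIA3 (0.02) were above 0, and with the slide block GRIA1 (0.10) and GRIA2 (0.04). Without each array in turn the direct difference spanned -0.20 to 0.09 for GLUD1, -0.26 to 0.10 for GRIA1 -0.24 to 0.04 for GRIA2 and -0.02 to 0.32 for GRM5. The maternal difference spanned -0.48 to 0.12 for MGLUR2, -0.48 to 0.07 for MGLUR7 and -0.09 to 0.13 for GRIA3.

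Replicates shared numbers across groups, but the deviations of same-numbered arrays correlated at 0.131, 0.118 and 0.264 for the 3 direct pairs on a shared slide, at -0.172 for the direct pair on different slides, and at -0.085 and -0.077 after maternal infusion. Not every pair was above 0.1, so the numbers were not taken as pairs. With a replicate block 2824 probes passed after direct and 0 after maternal infusion, and EAAT2 after direct infusion was -0.30 (limma adjusted p = 0.318). The cause of these changes was not tested. Maternal vehicle rests on 2 arrays, and MGLUR2 on signals near background.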
